A study of Homo sapiens with 8 samples.

Results

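The genes described here are 42 genes of the unfolded protein response and of the amino acid response, chosen by name as the ATF4 branch and the endoplasmic reticulum (ER) chaperone branch of these programs, out of 57736 gene IDs in the count table. The choice was made with earlier results of these data known. Each of the 42 matched 1 Ensembl ID. All passed the filter on low counts, of which 40 reached its level (10 counts in a library of median size, or 0.309 CPM, counts scaled to library size) in each of the 4 groups. ALDH1L2 reached that level only in the ARID1A knockout and SLC6A9 only in wild-type cells.

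The cells were RMG1, a human cell line from an ovarian clear cell carcinoma, and its total RNA was sequenced in 8 libraries, 2 per group. The groups were RMG1 cells with ARID1A knocked out (ARID1A KO), RMG1 cells wild type for ARID1A (wild type), RMG1 cells with CAPH2 knocked down (CAPH2 KD), and RMG1 cells carrying the control of that knockdown (shControl). The knockdown and its control are labelled wild type for ARID1A, and the knockout is labelled wild type for CAPH2. ARID1A is a subunit of SWI/SNF, a complex that remodels chromatin, and CAPH2, encoded by NCAPH2, is a subunit of condensin II, the subject of the series being how ARID1A affects condensin II. The labels do not say whether the knockout is 1 clone, which hairpin was used, or whether both libraries of a group stem from separate cultures. The p-values therefore cover the spread among the sequenced libraries alone, which may be technical.

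Unfolded protein in the ER is sensed by the kinases PERK and IRE1 and by the membrane-bound factor ATF6. PERK, like the amino acid sensor GCN2, phosphorylates the translation factor eIF2, which lowers protein synthesis and raises translation of the transcription factor ATF4. ATF4 drives genes for amino acid synthesis and transport, while IRE1, by splicing XBP1 mRNA, and ATF6 drive ER chaperones. Much of this signalling acts through translation, splicing and phosphorylation, none of which gene-level RNA counts show.

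Libraries held 24559547 to 37378691 counts. Levels are CPM after TMM scaling, a gene was called changed at a Benjamini-Hochberg adjusted p under 0.05 in edgeR's quasi-likelihood test over 16657 genes, and changes are log2 fold changes, each given with its standard error from the fit (SE). NCAPH2 had 8.98 and 8.74 CPM in CAPH2 KD libraries, against 24.0 and 25.8 CPM in shControl libraries (log2 fold change -1.49, SE 0.10, edgeR adjusted p = 1.84e-06). It was lower in the knockout too, with 21.0 and 23.9 CPM in ARID1A KO libraries, against 26.8 and 30.0 CPM in wild-type libraries (log2 fold change -0.34, SE 0.09, edgeR adjusted p = 0.0144). ARID1A RNA had 6.66 and 5.61 CPM in ARID1A KO libraries, against 8.80 and 12.1 CPM in wild-type libraries (log2 fold change -0.77, SE 0.16, edgeR adjusted p = 0.00274), and RNA left by a knockout says nothing of the protein. The 4 epithelial markers summed to 1582 to 1795 CPM and PAX8, a marker of this tumour type, had 244 to 354 CPM over the 8 libraries. Single epithelial markers moved both ways in the knockout. KRT8 was lower than in wild type (log2 fold change -0.70, SE 0.05, edgeR adjusted p = 1.06e-06). CDH1 was higher (0.96, SE 0.05, edgeR adjusted p = 7.93e-08), as was EPCAM (0.29, SE 0.08, edgeR adjusted p = 0.0201), and KRT18 was not called. Of other cell types, the 6 fibroblast markers summed to 0.99 to 1.12 CPM in ARID1A KO and 0.43 to 0.45 CPM in wild-type libraries, with 2 and 4 of them at 0. The 6 leukocyte markers summed to 4.60 to 5.62 CPM in ARID1A KO and 3.08 to 4.50 CPM in wild-type libraries, with CD3E at 0. Single markers moved more than these sums: PTPRC, the leukocyte antigen CD45, had 2.25 and 1.98 CPM in ARID1A KO, against 0.041 and 0 CPM in wild type. LUM, the fibroblast proteoglycan lumican, had 0.36 and 0.71 CPM in ARID1A KO and was at 0 in the other 6 libraries. PTPRC and LUM reached the level of the filter in both libraries of the knockout alone. They were tested only because they were high there, so no p-value is given for them. CSF1R, a receptor of macrophages, had 0.49 and 0.55 CPM in ARID1A KO, against 1.90 and 2.21 CPM in wild type (edgeR adjusted p = 0.000998). The part of these markers in the results was not tested. The 4 endothelial markers reached at most 1.03 CPM in any library. In RNA from whole cultures, fewer cells expressing a gene and less of its RNA per cell cannot be told apart.

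The response genes moved in both directions in the ARID1A knockout, and more of them were called than of genes in general. The 42 genes and the further lists were chosen with earlier results of these data known, and were not matched by level to other genes. The shares are therefore a description and not a test. Of the 42, 13 were higher and 16 were lower in ARID1A KO than in wild-type cells, 69.0% in all, against 34.5% of all genes tested (16.8% higher and 17.8% lower). The 13 include ALDH1L2, which passed the filter only through the knockout. With a filter of 1 CPM in 2 libraries, 12 were higher and 16 lower. In the CAPH2 knockdown 5 were higher and 11 were lower than in shControl, 38.1% against 15.8% of all genes tested (7.62% higher and 8.22% lower). The median log2 fold change of the 42 was -0.14 in the knockout and -0.11 in the knockdown, where the median of all genes tested was 0.00 in both. The libraries of the compared groups did not overlap for 38 of 42 genes in the knockout comparison, against 64.5% of all genes, and for 33 of 42 in the knockdown comparison, against 59.0%. Most changes were of modest size: 7 calls in the knockout and 2 in the knockdown were of at least 1 on the log2 scale. The same shares of all genes, 34.5% in the knockout and 15.8% in the knockdown, are the base for the counts by role and by list.

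**Figure D1:**
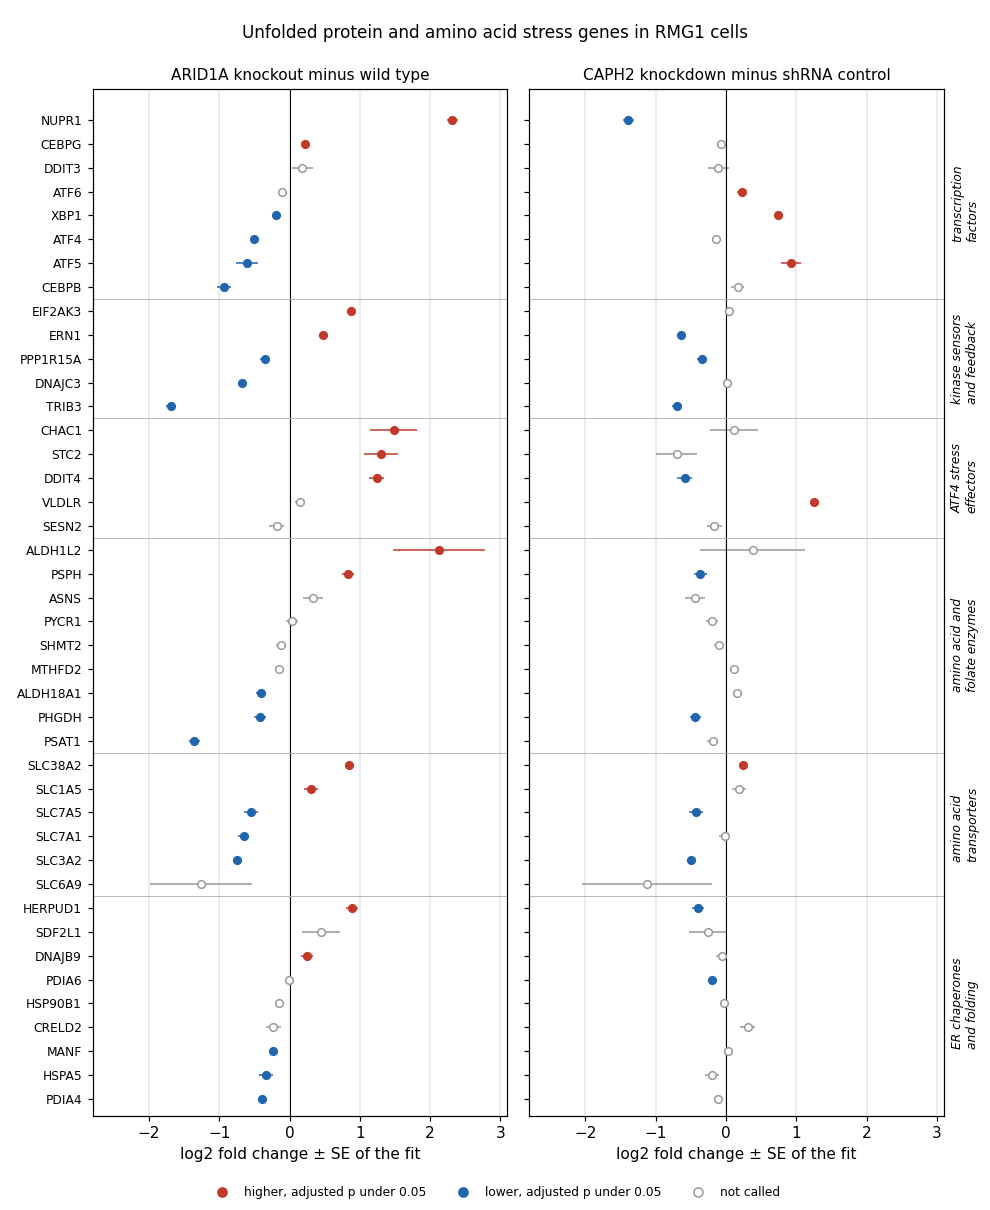
Log2 fold change (x axis, ± SE of the fit) of the 42 genes in rows grouped by role, for ARID1A KO minus wild type (left) and CAPH2 KD minus shControl (right), with 2 libraries per group. Filled points passed an adjusted p under 0.05 (red higher, blue lower) and open points did not. The knockout panel holds 13 red and 16 blue points, NUPR1 at 2.32 being the highest and TRIB3 at -1.69 the lowest, and the knockdown panel holds 5 red and 11 blue.

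Short DNA motifs near the start site are known for the ATF4 branch and for the ER chaperone branch, and 4 start-site sequences are printed to show them. RefSeq windows on GRCh38.p14, each from 250 bases before a start site to 50 bases after it, were at hand for 37 of the 42 genes. They were searched on both strands for TGATGNAA (N is any base), the core of the C/EBP-ATF response element bound by ATF4 with a C/EBP partner. The same windows were searched on both strands for the ER stress element and the ER stress element II, which factors of the unfolded protein response bind. The C/EBP-ATF core was in a window of 7 genes (CEBPG, CHAC1, ASNS, SLC3A2, SLC7A1, SLC1A5 and HERPUD1), against 4.46% of 27305 genes with a window. The ER stress element was in 5 (XBP1, HSPA5, HSP90B1, PDIA6 and CRELD2), against 0.0916% of all genes, and the ER stress element II in HERPUD1 and SDF2L1, against 0.0696% of all genes. A match is a description of the letters and not a bound site, and a missing match says only that the letters are not in that window. Below are 4 windows of genes called in at least 1 comparison, 5′ to 3′ on the gene's strand, with the matched letters in capitals (the reverse complement where the match is on the other strand): CHAC1 (chr15:40953221-40953520, plus strand), HERPUD1 (chr16:56931892-56932191, plus strand, the first run the C/EBP-ATF core and the other the ER stress element II), XBP1 (chr22:28800520-28800819, minus strand) and HSPA5 (chr9:125241294-125241593, minus strand).
CHAC1: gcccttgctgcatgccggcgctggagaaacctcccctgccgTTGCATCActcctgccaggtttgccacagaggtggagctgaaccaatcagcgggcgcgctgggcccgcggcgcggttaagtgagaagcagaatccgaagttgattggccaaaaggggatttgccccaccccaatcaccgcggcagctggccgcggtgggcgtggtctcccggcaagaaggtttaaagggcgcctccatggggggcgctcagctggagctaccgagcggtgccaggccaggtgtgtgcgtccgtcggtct
HERPUD1: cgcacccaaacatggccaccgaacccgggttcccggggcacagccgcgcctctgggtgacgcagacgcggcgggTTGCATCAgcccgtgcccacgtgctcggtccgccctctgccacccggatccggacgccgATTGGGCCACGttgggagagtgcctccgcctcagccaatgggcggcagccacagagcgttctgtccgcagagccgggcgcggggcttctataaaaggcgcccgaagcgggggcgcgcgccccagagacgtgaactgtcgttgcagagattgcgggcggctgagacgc
XBP1: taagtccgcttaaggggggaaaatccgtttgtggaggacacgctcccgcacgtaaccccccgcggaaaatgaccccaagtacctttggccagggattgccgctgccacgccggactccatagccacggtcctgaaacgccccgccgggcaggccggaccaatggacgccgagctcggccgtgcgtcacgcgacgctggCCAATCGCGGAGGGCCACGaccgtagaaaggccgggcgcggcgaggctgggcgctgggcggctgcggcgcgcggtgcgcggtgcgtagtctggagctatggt
HSPA5: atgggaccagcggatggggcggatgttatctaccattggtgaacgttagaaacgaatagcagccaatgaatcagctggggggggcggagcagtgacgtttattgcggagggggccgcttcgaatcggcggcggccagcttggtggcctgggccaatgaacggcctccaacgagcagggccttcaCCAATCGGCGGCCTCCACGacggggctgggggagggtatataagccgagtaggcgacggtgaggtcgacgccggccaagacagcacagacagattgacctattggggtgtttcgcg

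In these windows the matches begin at position -209 for CHAC1 and at -176 and -117 for HERPUD1, counted from the start site. They begin at -52 for XBP1 and at -66 for HSPA5. Of the 7 genes with the C/EBP-ATF core, CEBPG, CHAC1, SLC1A5 and HERPUD1 were called higher in the knockout, SLC3A2 and SLC7A1 were called lower, and ASNS was not called. The 5 with the ER stress element had log2 fold changes from -0.34 to -0.0062 there, of which XBP1 and HSPA5 were called lower and the other 3 were not called. Of the 2 with the ER stress element II, HERPUD1 was called higher at 0.89 and SDF2L1, at 0.45, was not called.

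Among the 8 transcription factors, ARID1A KO cells had more NUPR1 and less ATF4, CEBPB and ATF5 RNA than wild-type cells, and CAPH2 KD cells had more XBP1 and ATF5 and less NUPR1 than shControl cells. In the knockout 2 were called higher and 4 lower, and in the knockdown 3 higher and 1 lower. NUPR1 (ENSG00000176046, chromosome 16) encodes a small stress-induced chromatin protein. It had 144 and 135 CPM in ARID1A KO libraries, against 29.4 and 26.7 CPM in wild-type libraries. In CAPH2 KD libraries it had 32.1 and 30.3 CPM, against 86.8 and 77.0 CPM in shControl libraries. The knockout libraries were thus the highest of the 8, the wild-type and knockdown libraries the lowest, and neither pair of groups overlapped. The change was 2.32 (SE 0.08) in the knockout (edgeR adjusted p = 2.5e-09) and -1.39 (SE 0.08) in the knockdown (edgeR adjusted p = 3.87e-07). The controls of the 2 comparisons differed too, shControl minus wild type being 1.55 (SE 0.08, edgeR adjusted p = 4.73e-07), so the knockdown level lay near wild type while far from its own control.

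ATF4, the central factor of the amino acid response, had 370 and 385 CPM in ARID1A KO libraries, against 527 and 541 CPM in wild-type libraries. In CAPH2 KD it had 454 and 458 CPM, against 495 and 506 CPM in shControl. Both perturbed groups lay below their controls without overlap, the knockout by more. The log2 fold change was -0.50 (SE 0.05, edgeR adjusted p = 1.01e-05) in the knockout and -0.14 (SE 0.05, edgeR adjusted p = 0.0829) in the knockdown. CEBPB, a C/EBP factor induced by stress and cytokines, had 25.5 and 23.8 CPM in ARID1A KO, against 51.8 and 42.3 CPM in wild type. Its CAPH2 KD libraries had 55.4 and 52.3 CPM, against 46.7 and 49.2 CPM in shControl. Only the knockout libraries stood apart from the other 6, at about the same low level in both. The change in the knockout was -0.93 (SE 0.09, edgeR adjusted p = 1.35e-05) and that in the knockdown 0.17 (SE 0.09, edgeR adjusted p = 0.256).

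ATF5, a relative of ATF4 that is also translated under eIF2 phosphorylation, had 3.75 and 3.73 CPM in ARID1A KO libraries, against 5.99 and 5.40 CPM in wild-type libraries. CAPH2 KD libraries had 10.7 and 10.4 CPM, against 5.01 and 6.03 CPM in shControl libraries. The perturbations lay on opposite sides of controls that overlapped each other. The changes were -0.60 (SE 0.15, edgeR adjusted p = 0.0103) in the knockout and 0.93 (SE 0.14, edgeR adjusted p = 0.000967) in the knockdown. The knockout call was lost without wild-type replicate 1 or without knockout replicate 2, with an adjusted p of at most 0.0524 over the alternatives tried. ATF5 overlaps NUP62 (46.8 CPM on average) on the opposite strand, and the authors' strand setting is not given in the sources used here, so its counts are uncertain. XBP1, the factor made active by IRE1 splicing, had 73.1 and 75.9 CPM in ARID1A KO, against 82.7 and 87.9 CPM in wild type. It had 142 CPM in both CAPH2 KD libraries, against 87.5 and 82.6 CPM in shControl. The knockdown libraries were well above the other 6, which spanned a narrow range. The change was 0.74 (SE 0.06, edgeR adjusted p = 5.31e-06) in the knockdown. In the knockout it was -0.19 (SE 0.06, edgeR adjusted p = 0.0231), a call lost in 4 alternatives, among them without wild-type replicate 2 and without either knockout replicate (adjusted p up to 0.146). Gene counts do not tell spliced from unspliced XBP1.

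Of the other factors, CEBPG, the C/EBP partner of ATF4, was called higher in the knockout by 0.22 (SE 0.06, edgeR adjusted p = 0.011), and this did not hold without knockout replicate 1. ATF6 was called only in the knockdown, at 0.22 (SE 0.06, edgeR adjusted p = 0.0229), and that call was lost without any 1 of the 4 libraries compared. DDIT3, which encodes the pro-death factor CHOP, had 7.26 CPM in both ARID1A KO libraries, against 7.03 and 5.79 CPM in wild type. In CAPH2 KD it had 8.29 and 7.42 CPM, against 7.77 and 9.13 CPM in shControl, where the groups overlapped. It was called in neither comparison, and it overlaps MARS (101 CPM on average) on the opposite strand.

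**Figure D2:**
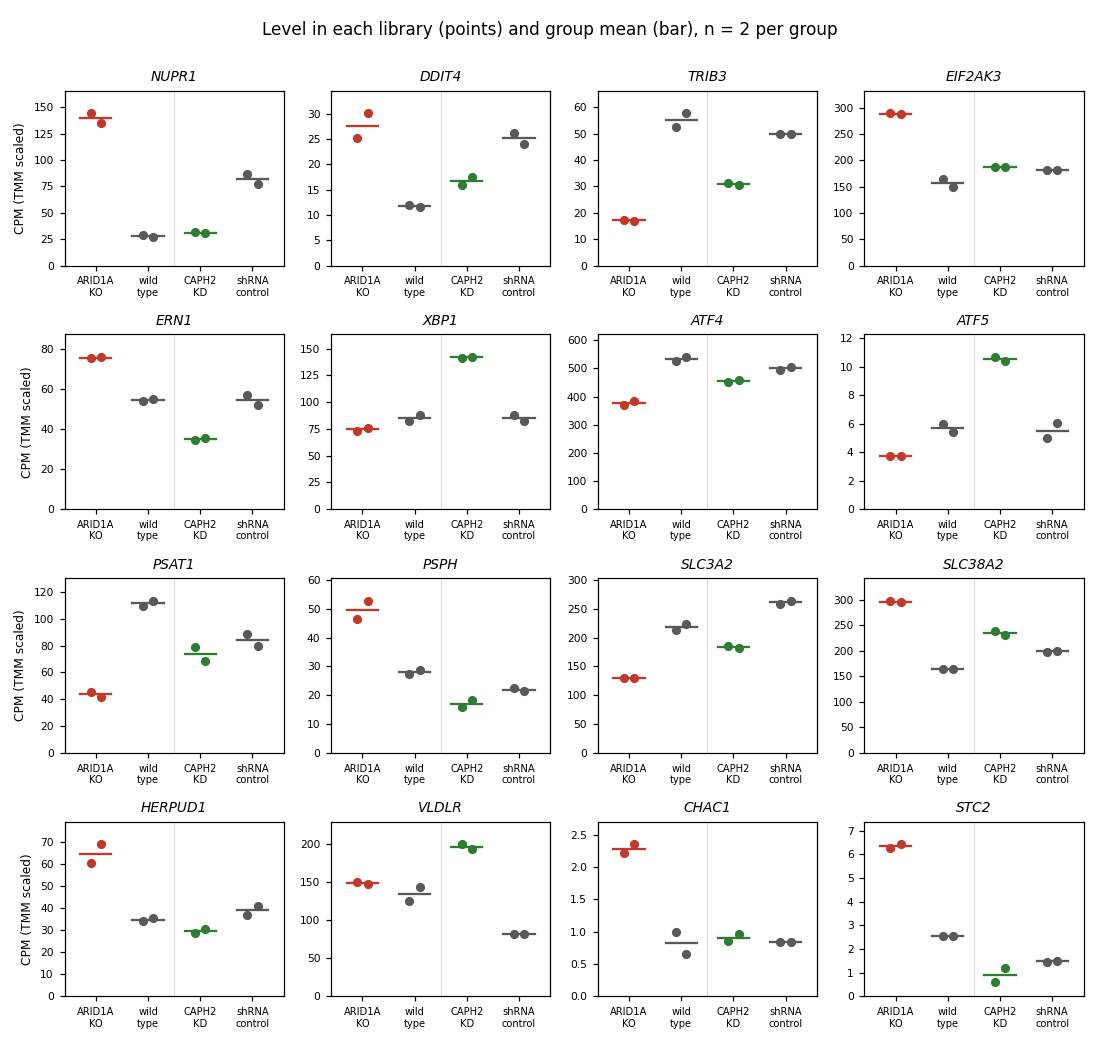
Level of 16 of the genes in CPM (y axis, from 0) in each of the 2 libraries (points) of ARID1A KO, wild type, CAPH2 KD and shControl, with group means as bars. NUPR1 reached 144 and 135 CPM in ARID1A KO and 29.4 and 26.7 CPM in wild type, and XBP1 was high only in the CAPH2 KD libraries, at 142 CPM in both.

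The 5 sensors and feedback genes were all called in the knockout, the 2 kinase sensors higher and the 3 feedback genes lower. EIF2AK3 (ENSG00000172071, chromosome 2) encodes PERK. It had 290 and 288 CPM in ARID1A KO libraries, against 165 and 149 CPM in wild-type libraries. The CAPH2 KD libraries had 188 and 187 CPM, against 183 and 182 CPM in shControl. The knockout pair was far above the other 6 libraries, which all lay at or below 188 CPM. The change in the knockout was 0.88 (SE 0.06, edgeR adjusted p = 5.04e-07) and that in the knockdown 0.04 (SE 0.06, edgeR adjusted p = 0.737). ERN1 encodes IRE1 and had 75.5 and 76.1 CPM in ARID1A KO, against 54.0 and 55.0 CPM in wild type. In CAPH2 KD it had 34.5 and 35.8 CPM, against 57.1 and 52.3 CPM in shControl. The knockout was above, and the knockdown below, controls that overlapped. The changes were 0.48 (SE 0.06, edgeR adjusted p = 0.000112) and -0.64 (SE 0.06, edgeR adjusted p = 4.06e-05).

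TRIB3 (ENSG00000101255, chromosome 20) encodes a pseudokinase that is induced by ATF4 and CHOP and restrains them. It had 17.3 and 16.9 CPM in ARID1A KO libraries, against 52.5 and 57.7 CPM in wild-type libraries. In CAPH2 KD libraries it had 31.1 and 30.5 CPM, against 49.9 and 49.8 CPM in shControl libraries. Both perturbed groups were below every control library, the knockout the lowest. The changes were -1.69 (SE 0.07, edgeR adjusted p = 1.29e-08) in the knockout and -0.69 (SE 0.07, edgeR adjusted p = 3.28e-05) in the knockdown. DNAJC3 encodes P58IPK, an ER co-chaperone known as an inhibitor of PERK, and had 235 and 231 CPM in ARID1A KO, against 384 and 361 CPM in wild type. The CAPH2 KD libraries had 340 and 329 CPM, against 331 and 332 CPM in shControl. Only the knockout pair stood apart, and the knockdown overlapped its control. The change in the knockout was -0.68 (SE 0.05, edgeR adjusted p = 1.66e-06). PPP1R15A, which encodes GADD34, the subunit that brings a phosphatase to eIF2, was called lower in both comparisons, at -0.35 (SE 0.06, edgeR adjusted p = 0.0012) in the knockout and -0.34 (SE 0.06, edgeR adjusted p = 0.00307) in the knockdown. The knockdown call of PPP1R15A was lost without shControl replicate 1.

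The 5 stress effectors of the ATF4 branch ran higher in the knockout where they were called, with DDIT4, CHAC1 and STC2 higher, none lower, and VLDLR and SESN2 not called. DDIT4 encodes REDD1, an inhibitor of mTORC1. It had 25.1 and 30.0 CPM in ARID1A KO libraries, against 11.9 and 11.5 CPM in wild-type libraries. In CAPH2 KD it had 15.8 and 17.5 CPM, against 26.2 and 24.0 CPM in shControl. The knockout and shControl libraries shared a high level, wild type was lowest and the knockdown lay between. The changes were 1.24 (SE 0.11, edgeR adjusted p = 4.78e-06) in the knockout, -0.59 (SE 0.10, edgeR adjusted p = 0.00245) in the knockdown, and 1.10 (SE 0.11, edgeR adjusted p = 5.99e-05) for shControl minus wild type. CHAC1 encodes an enzyme that degrades glutathione, and it is the gene whose C/EBP-ATF core stands at -209. It had 2.22 and 2.35 CPM in ARID1A KO, against 0.99 and 0.65 CPM in wild type. Its CAPH2 KD libraries had 0.85 and 0.97 CPM, against 0.84 CPM in both shControl libraries. The knockout pair was the highest and the other 6 libraries lay at or below 0.99 CPM. Its change in the knockout was 1.48 (SE 0.33, edgeR adjusted p = 0.00501).

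STC2, which encodes a secreted glycoprotein induced by ER stress, had 6.28 and 6.42 CPM in ARID1A KO libraries, against 2.56 and 2.57 CPM in wild-type libraries. It had 0.63 and 1.19 CPM in CAPH2 KD, against 1.45 and 1.51 CPM in shControl. The 4 groups did not overlap, with the knockout highest and the knockdown lowest. The changes were 1.31 (SE 0.24, edgeR adjusted p = 0.00136) in the knockout and -0.70 (SE 0.29, edgeR adjusted p = 0.134) in the knockdown. VLDLR, the very low density lipoprotein receptor, had 149 and 147 CPM in ARID1A KO, against 125 and 143 CPM in wild type. The knockdown libraries had 199 and 193 CPM, against 82.1 and 81.6 CPM in shControl. The knockdown pair was the highest and the shControl pair the lowest. The change was 1.26 (SE 0.07, edgeR adjusted p = 2.65e-07) in the knockdown, where shControl itself lay below wild type by a log2 fold change of -0.71 (SE 0.07, edgeR adjusted p = 3.93e-05). SESN2, an amino acid sensing inhibitor of mTORC1, had log2 fold changes of -0.18 and -0.17 in the knockout and the knockdown, and neither was called.

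Among the 9 enzymes of amino acid and folate metabolism, the serine pathway split within itself in the knockout: PSAT1 and PHGDH were lower and PSPH was higher. In all, 2 of the 9 were called higher and 3 lower in the knockout, and 0 higher and 2 lower in the knockdown. The 2 higher were PSPH and ALDH1L2, of which ALDH1L2 passed the filter only through the knockout. PSAT1 (ENSG00000135069, chromosome 9), the aminotransferase of serine synthesis, had 45.8 and 41.6 CPM in ARID1A KO libraries, against 110 and 114 CPM in wild-type libraries. In CAPH2 KD libraries it had 78.7 and 68.8 CPM, against 88.5 and 79.6 CPM in shControl libraries. The knockout was below every other library, and the knockdown pair lay just under its control without overlap. The changes were -1.35 (SE 0.08, edgeR adjusted p = 2.25e-07) in the knockout and -0.19 (SE 0.08, edgeR adjusted p = 0.143) in the knockdown. PSPH, the phosphatase of the last step of serine synthesis, had 46.5 and 52.8 CPM in ARID1A KO, against 27.3 and 28.6 CPM in wild type. It had 15.9 and 18.2 CPM in CAPH2 KD, against 22.5 and 21.3 CPM in shControl. The knockout was the highest group and the knockdown the lowest, with no overlap in either pair. The changes were 0.83 (SE 0.09, edgeR adjusted p = 2.21e-05) and -0.36 (SE 0.09, edgeR adjusted p = 0.0222), the knockdown call being lost without either shControl replicate or without knockdown replicate 1. PHGDH, the dehydrogenase of the entry step, was lower in both, by log2 fold changes of -0.42 (SE 0.08, edgeR adjusted p = 0.00167) and -0.44 (SE 0.08, edgeR adjusted p = 0.00329).

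ALDH18A1, the entry enzyme of proline synthesis, was called lower in the knockout, at -0.41 (SE 0.07, edgeR adjusted p = 0.000509). The mitochondrial folate enzyme ALDH1L2 was close to the limit of detection and passed the filter only through the knockout, where it was high. It had 0.74 and 0.94 CPM in ARID1A KO, from 27 and 36 counts, against 0.08 and 0.29 CPM in wild type, from 2 and 8 counts. The CAPH2 KD libraries had 0.16 and 0.23 CPM, against 0.12 and 0.17 CPM in shControl. The knockout pair was the highest of the 8, at a level where few reads were counted. Its log2 fold change was 2.12 (SE 0.65), and no p-value is given, as it was tested only because it was high in the knockout. Its call was lost in DESeq2 and without wild-type replicate 1 or either knockout replicate. ALDH1L2 also overlaps C12orf45 (24.3 CPM on average) on the opposite strand. ASNS, asparagine synthetase and a classical ATF4 target, was called in neither comparison, at 0.33 (SE 0.14, edgeR adjusted p = 0.082) in the knockout and -0.44 (SE 0.14, edgeR adjusted p = 0.065) in the knockdown. SHMT2 and MTHFD2 of mitochondrial folate metabolism and PYCR1 of proline synthesis were called in neither, with log2 fold changes from -0.20 to 0.11 over both comparisons.

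The amino acid transporters were called in 5 of 6 cases in the knockout, with 2 higher and 3 lower, and in 3 of 6 in the knockdown, with 1 higher and 2 lower (34.5% and 15.8% of all genes tested). SLC3A2 encodes the heavy chain shared by several amino acid exchangers. It had 131 and 129 CPM in ARID1A KO libraries, against 214 and 224 CPM in wild-type libraries. In CAPH2 KD libraries it had 186 and 183 CPM, against 259 and 264 CPM in shControl libraries. Each perturbed group was well below its own control. The changes were -0.75 (SE 0.05, edgeR adjusted p = 6.91e-07) and -0.50 (SE 0.05, edgeR adjusted p = 4.89e-05). SLC7A5, the LAT1 light chain that pairs with SLC3A2, had 41.5 and 39.0 CPM in ARID1A KO, against 51.5 and 66.3 CPM in wild type. It had 60.9 and 65.0 CPM in CAPH2 KD, against 88.9 and 80.8 CPM in shControl. Like its partner it was lower in both perturbations without overlap, although the wild-type libraries differed from each other. The changes were -0.55 (SE 0.10, edgeR adjusted p = 0.00161) and -0.43 (SE 0.10, edgeR adjusted p = 0.0127), the knockdown call being lost without shControl replicate 1 or knockdown replicate 1.

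SLC7A1, the cationic amino acid transporter CAT1, had 28.8 and 27.7 CPM in ARID1A KO, against 43.9 and 45.1 CPM in wild type. Its CAPH2 KD libraries had 43.6 and 46.1 CPM, against 48.6 and 42.4 CPM in shControl. Only the knockout pair was low, and the knockdown overlapped its control. Its change in the knockout was -0.65 (SE 0.08, edgeR adjusted p = 5.4e-05). SLC38A2, the neutral amino acid transporter SNAT2, went the other way, with 299 and 295 CPM in ARID1A KO, against 165 and 164 CPM in wild type. It had 239 and 231 CPM in CAPH2 KD, against 199 CPM in both shControl libraries. Both perturbed groups were above both controls. The changes were 0.85 (SE 0.05, edgeR adjusted p = 1.79e-07) in the knockout and 0.24 (SE 0.05, edgeR adjusted p = 0.00626) in the knockdown, the knockdown call being lost without either shControl replicate or knockdown replicate 1. SLC1A5, the glutamine transporter ASCT2, was called higher in the knockout at 0.30 (SE 0.10, edgeR adjusted p = 0.0384), a call lost in 5 alternatives, among them without wild-type replicate 2 or knockout replicate 1. SLC6A9, a glycine transporter, had at most 18 counts in any library and was called in neither comparison.

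Fold changes of most ER chaperones were small. In the knockout 2 of 9 were called higher and 3 lower, and in the knockdown 0 higher and 2 lower, and HERPUD1 was the single member of this group with a call of at least 0.5 on the log2 scale. HERPUD1 (ENSG00000051108, chromosome 16), whose window holds both a C/EBP-ATF core and an ER stress element II, encodes a membrane protein of ER-associated degradation. It had 60.3 and 68.9 CPM in ARID1A KO libraries, against 34.1 and 35.6 CPM in wild-type libraries. The CAPH2 KD pair had 28.6 and 30.7 CPM, against 37.1 and 40.8 CPM in shControl. The knockout pair was far above the rest and the knockdown pair the lowest. The changes were 0.89 (SE 0.08, edgeR adjusted p = 6.78e-06) and -0.39 (SE 0.08, edgeR adjusted p = 0.0073), the knockdown call being lost without shControl replicate 2 or knockdown replicate 1. SDF2L1, a partner of ER chaperones, had 4.99 and 3.39 CPM in ARID1A KO, against 2.19 and 3.91 CPM in wild type. The knockdown libraries had 3.69 and 3.71 CPM, against 4.70 and 4.16 CPM in shControl. Its knockout libraries overlapped wild type, and it was called in neither comparison.

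The chief ER chaperones BiP and GRP94 had negative log2 fold changes in both comparisons. HSPA5, which encodes BiP, had 125 and 109 CPM in ARID1A KO, against 133 and 163 CPM in wild type. Its CAPH2 KD libraries had 147 and 140 CPM, against 176 and 154 CPM in shControl. Both perturbed groups were below their controls, with a wide spread within most pairs. The changes were -0.34 (SE 0.10, edgeR adjusted p = 0.0221) in the knockout, lost without wild-type replicate 2 or knockout replicate 2, and -0.20 (SE 0.10, edgeR adjusted p = 0.218) in the knockdown. HSP90B1, which encodes GRP94, had log2 fold changes of -0.15 (SE 0.05, edgeR adjusted p = 0.0521) in the knockout and -0.03 (SE 0.05, edgeR adjusted p = 0.792) in the knockdown. The disulfide isomerase PDIA4 was lower in the knockout at -0.40 (SE 0.05, edgeR adjusted p = 0.000114), as was MANF, a secreted ER stress protein, at -0.23 (SE 0.05, edgeR adjusted p = 0.00545). PDIA6, another isomerase, was called only in the knockdown, at -0.20 (SE 0.05, edgeR adjusted p = 0.019), which did not hold without either shControl replicate or knockdown replicate 2. DNAJB9, an ER co-chaperone, was called higher in the knockout at 0.25 (SE 0.08, edgeR adjusted p = 0.0347), and this call was lost in 7 alternatives. CRELD2, an ER stress induced secretory protein, was called in neither comparison.

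The knockout and the knockdown use different libraries, so their effects can be set against each other. The difference between them was called for 26 of the 42 genes, against 26.3% of all genes tested, with 10 more positive and 16 more negative in the knockout (12.3% and 14.0% of all genes). NUPR1 differed most, by 3.71 (SE 0.11, edgeR adjusted p = 1.43e-09), followed by STC2 at 2.01 (SE 0.37, edgeR adjusted p = 0.00204) and DDIT4 at 1.83 (SE 0.15, edgeR adjusted p = 4.36e-06). At the negative end stood ATF5, at -1.53 (SE 0.21, edgeR adjusted p = 0.000241), PSAT1 at -1.17 (SE 0.11, edgeR adjusted p = 1.67e-05) and VLDLR at -1.12 (SE 0.09, edgeR adjusted p = 4.61e-06). In both comparisons 13 genes were called. Of these, 6 had the same direction (TRIB3, PPP1R15A, PHGDH, SLC3A2 and SLC7A5 lower, SLC38A2 higher), against 4.85% of all genes. The other 7 had opposite directions (NUPR1, ERN1, DDIT4, PSPH and HERPUD1 higher in the knockout and lower in the knockdown, ATF5 and XBP1 the reverse), against 4.26% of all genes. In neither comparison were 10 genes called, against 58.7% of all genes. The effects on PPP1R15A differed by -0.01 (SE 0.09, edgeR adjusted p = 0.946) and those on PHGDH by 0.02 (SE 0.11, edgeR adjusted p = 0.941), while those on TRIB3 differed by -0.99 (SE 0.10, edgeR adjusted p = 1.81e-05).

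**Figure D3:**
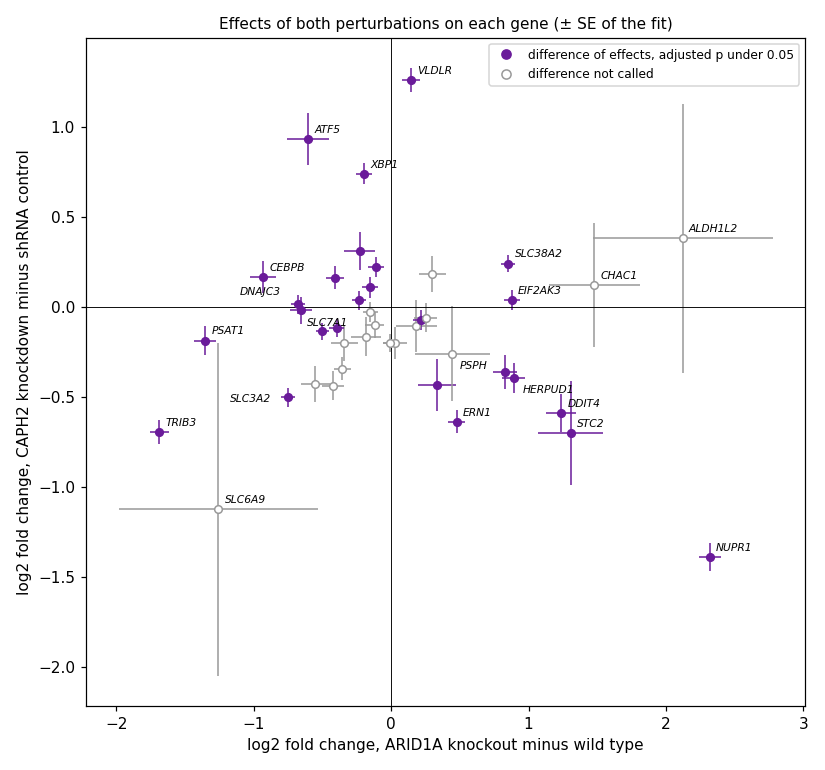
Log2 fold change in CAPH2 KD minus shControl (y axis) against that in ARID1A KO minus wild type (x axis) for the 42 genes, each with the SE of the fit. Filled points are the 26 genes whose effects differed at an adjusted p under 0.05, with NUPR1 at 2.32 and -1.39 in the lower right and VLDLR at 0.14 and 1.26 at the top.

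The control libraries were not alike for these genes. shControl differed from wild type in 16 of the 42, 8 higher and 8 lower, 38.1% against 19.2% of all genes tested (9.13% higher and 10.1% lower), and 29 of 42 did not overlap, against 57.5% of all genes. The 9 enzymes all had a negative log2 fold change in shControl minus wild type, and 6 of them were called lower, with ALDH18A1 at -0.47 (SE 0.07, edgeR adjusted p = 0.000592) and PSAT1 at -0.41 (SE 0.08, edgeR adjusted p = 0.00418) the largest. The transporters SLC7A5 at 0.52 (SE 0.10, edgeR adjusted p = 0.00428), SLC38A2 at 0.28 (SE 0.05, edgeR adjusted p = 0.00283) and SLC3A2 at 0.26 (SE 0.05, edgeR adjusted p = 0.00534) were higher in shControl. This comparison shares its wild-type libraries with the knockout comparison and its shControl libraries with the knockdown comparison, so its values are not independent of either. By group mean, ARID1A KO was the highest group for 15 of the 42 genes and the lowest for 17, CAPH2 KD the highest for 7 and the lowest for 12, wild type for 11 and 8, and shControl for 9 and 5. The same counts over all genes were not made, so whether these 42 differ from genes in general here is not known.

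Position on the chromosome was compared for each called gene, by the median log2 fold change of up to 20 tested protein-coding genes on either side. For most called genes in the knockout these neighbours were near 0, and the sign of all 29 calls was kept after their median was subtracted, as were the 16 calls in the knockdown. In 4 genes, singled out after the values were seen, the neighbours' median in the knockout lay beyond 0.3 from 0, on the gene's own side. SLC38A2 changed by 0.85 where its 40 neighbours had a median of 0.73, and DNAJC3 by -0.68 where 40 neighbours had -0.55. ALDH18A1 changed by -0.41 where 40 neighbours had -0.38, and TRIB3 by -1.69 where 23 neighbours had -0.52. The part of these shared shifts in the 4 changes was not tested. NUPR1 and PSAT1, with 40 neighbours each, had neighbour medians of -0.02 and 0.03.

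**Figure D4:**
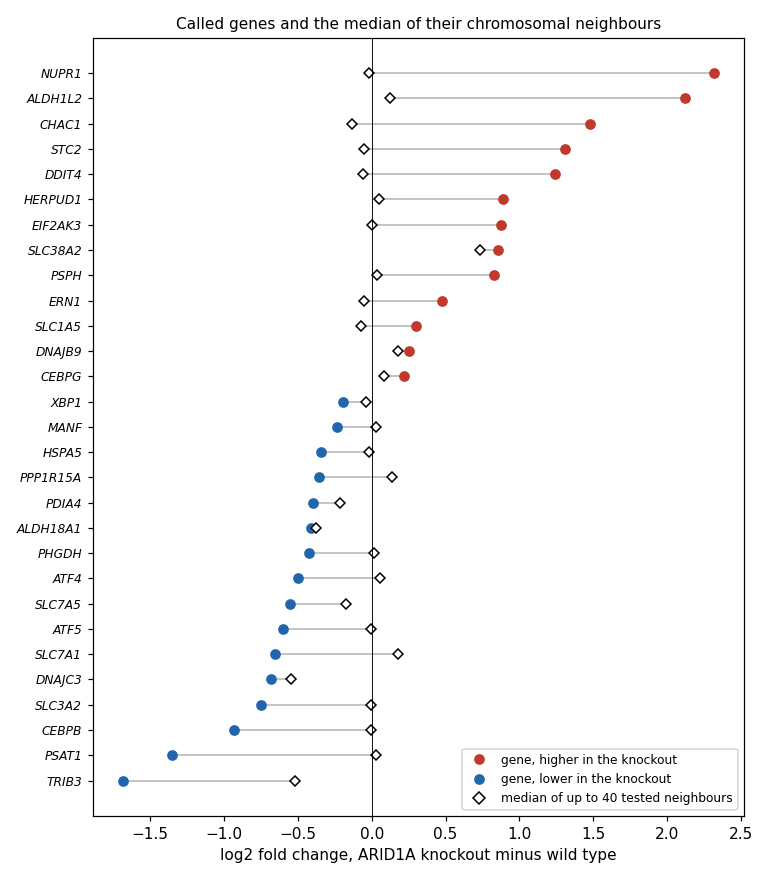
Log2 fold change in ARID1A KO minus wild type (x axis) of the 29 called genes (filled circles, red higher and blue lower) and the median of up to 40 neighbouring tested genes (open diamonds). The diamonds stand near 0 for most genes but near the gene itself for SLC38A2 (0.73), DNAJC3 (-0.55) and ALDH18A1 (-0.38).

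Levels per length span a wide range. As CPM per kilobase of annotated exons, averaged over the 4 group means, HSP90B1 was the highest at 689.9, followed by PDIA6 at 208, ATF4 at 186 and PDIA4 at 104. CHAC1 at 0.59, STC2 at 0.46, SLC6A9 at 0.05 and ALDH1L2 at 0.04 CPM per kilobase were the lowest. The level of HSP90B1 was 633 ± 8.96 in ARID1A KO and 702 ± 61.2 in wild type, and 705 ± 8.11 in CAPH2 KD and 719 ± 14.9 in shControl (CPM per kilobase, SD, n = 2 each). The SD of the wild-type libraries was nearly as large as the difference between the knockout and wild-type means. PDIA6 had 216 ± 6.63 in ARID1A KO and 217 ± 6.54 in wild type, and ATF4 had 150.1 ± 4.01 and 212 ± 3.71 (CPM per kilobase, SD, n = 2 each). The length used counts every annotated exon of a gene and not the transcripts expressed, which the SD does not cover. The order of genes by this measure is therefore approximate.

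**Figure D5:**
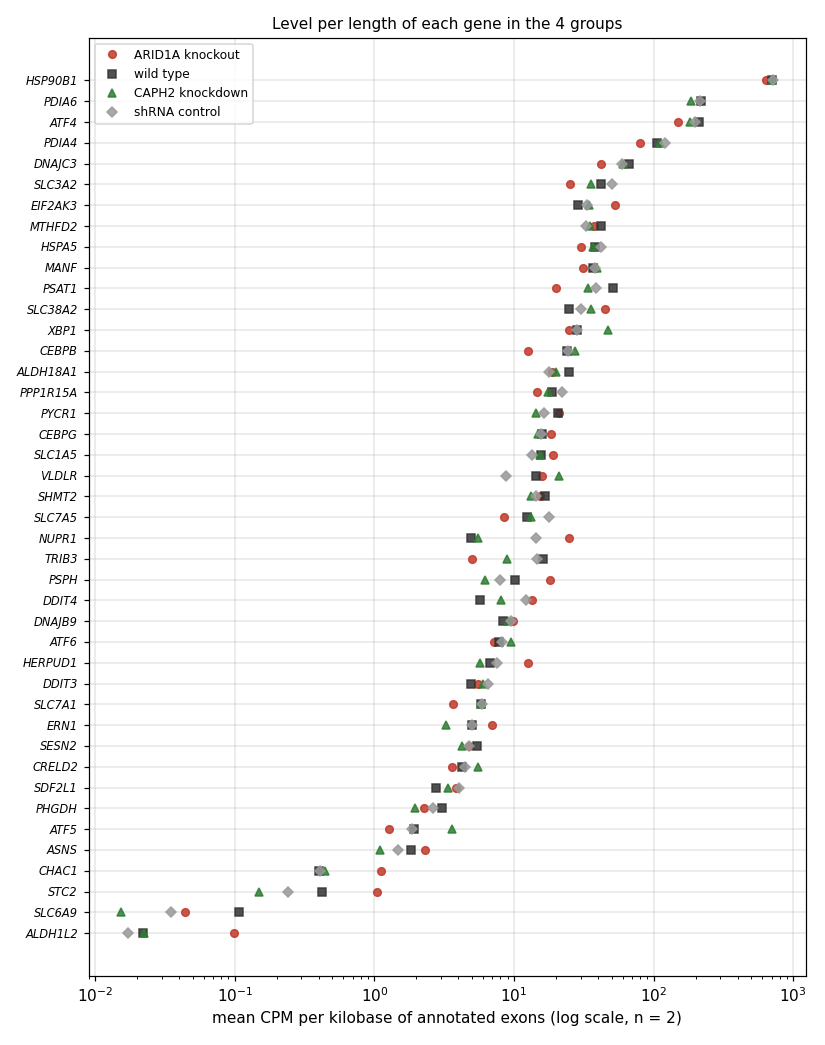
Mean CPM per kilobase of annotated exons (x axis, log scale, n = 2) of the 42 genes in the 4 groups, in order of their mean level. HSP90B1 is at the top, at 689.9 in the mean over groups, and ALDH1L2 at the bottom, at 0.04.

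Among 144 further genes of the same pathways, in 13 lists, 136 were tested. In the knockout 28 were higher and 40 lower, 50.0% against 34.5% of all genes, with a median log2 fold change of -0.03. In the knockdown 12 were higher and 25 lower, 27.2% against 15.8%, with a median of -0.02. Of 13 other ATF4 targets tested, 6 were higher and 2 lower in the knockout, and 0 were higher and 5 lower in the knockdown. CTH, the cystathionine lyase of cysteine synthesis, had the largest rise, with 12.5 and 13.4 CPM in ARID1A KO libraries, against 6.16 and 4.78 CPM in wild-type libraries (1.25, SE 0.18, edgeR adjusted p = 0.000248). JDP2, a repressor of AP-1, had the largest fall of that list, at -1.16 (SE 0.09, edgeR adjusted p = 2.25e-06), and EIF4EBP1, the translation inhibitor 4E-BP1, that in the knockdown, at -0.97 (SE 0.07, edgeR adjusted p = 1.99e-06). Of 10 other amino acid transporters, 1 was higher and 6 were lower in the knockout, and 2 higher and 2 lower in the knockdown. SLC7A8, the LAT2 light chain that also pairs with SLC3A2, had 32.9 and 26.2 CPM in ARID1A KO, against 144 and 139 CPM in wild type. It had 55.0 and 60.2 CPM in CAPH2 KD, against 212 and 199 CPM in shControl. Both perturbed groups were far below their controls, by -2.26 (SE 0.09, edgeR adjusted p = 1.25e-08) and -1.84 (SE 0.09, edgeR adjusted p = 1.52e-07). SLC38A1, a relative of SLC38A2, was the 1 transporter higher in the knockout, at 0.35, and SLC7A6, another light chain, had the largest rise in the knockdown, at 1.32 (SE 0.11, edgeR adjusted p = 7.64e-06).

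The 15 other ER chaperones and oxidoreductases split in the knockout, with 5 higher and 7 lower, and 1 was higher and 0 were lower in the knockdown. The thiol oxidase ERO1B had the largest rise at 1.02 (SE 0.17, edgeR adjusted p = 0.000679) and the disulfide isomerase P4HB the largest fall at -0.67 (SE 0.05, edgeR adjusted p = 2.63e-06). SIL1, the nucleotide exchange factor of BiP, was the call in the knockdown, at 0.56 (SE 0.09, edgeR adjusted p = 0.00144). Of 14 genes of ER-associated degradation tested, 2 were higher and 6 lower in the knockout (DERL1 at 0.67, HM13 at -0.45), and 3 higher and 2 lower in the knockdown (ERLEC1 at 0.27, HM13 at -0.36). Of the 9 other proline and glutamate enzymes, 2 were higher and 4 lower in the knockout, GLUD1, glutamate dehydrogenase, having the largest fall at -0.91 (SE 0.06, edgeR adjusted p = 6.99e-07). In the knockdown 2 of these were higher, glutamine synthetase GLUL the most at 0.70, and 2 lower, PRODH the most at -0.50. Of 10 other serine and folate enzymes, 2 were higher and 3 lower in the knockout (MTHFD2L at 0.69), and 0 higher and 3 lower in the knockdown (GLDC at -1.01).

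Of the 12 genes of eIF2, eIF2B and their kinases, 3 were higher and 2 lower in the knockout, 41.7% against 34.5% of all genes, and 1 was lower in the knockdown, 8.33% against 15.8%, EIF2B3 at 0.35 and EIF2B2 at -0.36 being the largest in the knockout and EIF2B2 at -0.38 the call in the knockdown. Of 15 cytosolic aminoacyl-tRNA synthetases, 2 were higher and 4 lower in the knockout, and 3 higher and 3 lower in the knockdown. AARS1 was the largest rise in the knockout at 0.29 and the largest fall in the knockdown at -0.40, NARS1 the largest fall in the knockout at -0.44, and WARS1 the largest rise in the knockdown at 0.37. The 12 translocon genes had 1 higher and 2 lower in the knockout and 2 lower in the knockdown, with SEC61A1 at -0.46 and SEC63 at 0.18 in the knockout and SEC63 at -0.28 in the knockdown. Of 5 tested relatives and processing proteases of ATF6, CREB3L2 fell in the knockout, at -1.20 (SE 0.10, edgeR adjusted p = 4.38e-06), and none was called in the knockdown. Among 5 relatives of the sestrins and tribbles, DDIT4L had 2.03 and 1.54 CPM in ARID1A KO, against 0.12 and 0.04 CPM in wild type. Its log2 fold change of 4.45 (SE 0.97) rests on few counts. The wild-type libraries lay below the level of the filter (0.309 CPM) and the knockout libraries above it, so no p-value is given. In the knockdown CASTOR1 was higher at 1.17 and TRIB1 lower at -0.38. Heat shock genes of the cytosol, 9 tested, had 1 higher and 3 lower in the knockout and 0 higher and 3 lower in the knockdown, with HSPH1 at 0.51 and BAG3 at -0.50 in the knockout and HSP90AA1 at -0.40 in the knockdown. Of 7 mitochondrial chaperones, HSPE1 was higher in the knockout at 0.27 and HSPA9 lower in the knockdown at -0.21.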

How the data were processed

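Total RNA of RMG1 cells was made into 8 TruSeq Total RNA libraries, per the labels' protocols. The table that the authors deposited holds expected counts, with 1 row per Ensembl gene and 1 column per library, without pooling. RSEM 1.2.12, Bowtie2 and the hg19 build are named, per the submitters' processing notes. Neither the Bowtie2 version nor the annotation or strand setting is given in the sources used here, so overlapping genes on opposite strands (12 of the 42 genes have one with a mean above 0.3 CPM) are uncertain. The deposited values were whole, so rounding changed none. A count was worth 0.0268 to 0.0407 CPM.

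Groups and replicate numbers came from the labels. In R 4.3.3, edgeR 4.0.16 was run with filterByExpr, TMM scaling and a quasi-likelihood F-test on all 8 libraries in 1 fit of group means (16657 genes, 4 residual degrees of freedom, biological coefficient of variation 7.74%), with Benjamini-Hochberg adjustment over all genes; the script was tested on simulated data. The effects tested were ARID1A KO minus wild type, CAPH2 KD minus shControl, the difference of these effects, and shControl minus wild type. Replicates correlated at 0.981 to 0.987 (log2 CPM) and differed by more than sampling noise (chi-square per degree of freedom 4.31 to 19.9). Gene length, chromosome and neighbour order came from GENCODE 29 on GRCh38, and promoter windows from RefSeq on GRCh38.p14, not from the authors' build. All 42 genes matched an ID, as did 144 of 145 further pathway genes.

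The genes, lists and tests were chosen with earlier results of these data known. Values of every library are given for genes called with a log2 fold change of at least 0.5 in either main comparison, and for the 2 with the largest change in a role with fewer than 2 such genes; from each further list, the largest rise and the largest fall among the calls are named, except some that are not reported here; HSPA5, DDIT3 and some ranges were added after their values were seen. Promoters printed are the 2 called genes with the largest change per motif. Alternatives were RLE and upper-quartile scaling, no filter, a filter of 1 CPM in 2 libraries, DESeq2 1.42.0, a fit of the 4 libraries compared, a replicate block, and leaving out each library.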

Additional observations from a re-analysis of the deposited data

How the results depend on the processing

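No fold change of the 42 genes that was called in the knockout, the knockdown or their difference reversed in any alternative. In the knockout 22 of 29 calls held in every alternative run for them and 7 were lost in at least 1, while 6 other genes were called in at least 1. In the knockdown 9 of 16 held and 7 were lost, with 7 others gained, and for the difference 18 of 26 held, 8 were lost and 7 others gained. Leaving out a library moved the counts most: over those fits the knockdown called 1360 to 3494 genes in all, with 3 to 7 of the 42 higher and 7 to 13 lower, and shControl minus wild type called 1553 to 3410 genes. Without shControl replicate 1 the knockdown called 1360 genes, 3 of the 42 higher and 7 lower, and shControl minus wild type 1553 genes. Without shControl replicate 2 these comparisons called 1485 and 1599 genes, and without knockdown replicate 1 or replicate 2 the knockdown called 1524 or 1499. The median log2 fold change of the 42 in the knockout lay between -0.14 and -0.079 over the fits with a library left out, the -0.079 without wild-type replicate 1. The knockout comparison also called fewer genes when a library was left out, the fewest without either knockout replicate. A group left with 1 library is assumed to vary like the others, and the cause of these shifts was not tested. Replicate numbers share no stated batch, and same-numbered libraries did not deviate together (correlations -0.024 to 0.03); with the replicate number as a block the knockout called 5500 genes against 5751, with the same 13 of the 42 higher and 16 lower in count, the knockdown called 2483 genes against 2639, and no call of the 42 changed side. DESeq2 called 5010 and 2289 genes in the knockout and the knockdown. The fit of only the 4 libraries compared called 4846 genes in the knockout, with 11 of the 42 higher and 15 lower. In the knockdown that fit called 3491 genes, with 6 of the 42 higher and 14 lower. The scalings moved the median of all genes by at most 0.02. ALDH1L2, SLC6A9, CHAC1 and STC2 had few counts, and small changes of these 4 genes were not detectable at this depth. The difference of effects could not be fitted from 4 libraries.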

Other observations

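Beyond the genes of the report, the libraries carrying the control hairpin differed from wild-type cells in folding factors outside the ER. Of 9 cytosolic heat shock genes tested, 1 was higher and 4 were lower in shControl than in wild type, and of 7 mitochondrial chaperones 1 was higher and 3 were lower, against 19.2% of all genes tested called in either direction. HSPA8, the constitutive cytosolic chaperone HSC70, had a log2 fold change of -0.75 (SE 0.04, edgeR adjusted p = 1.06e-06) in shControl minus wild type. The mitochondrial chaperonin pair HSPD1 and HSPE1 had -0.41 and -0.44. In CAPH2 KD minus shControl, HSPA8 changed by -0.01 (SE 0.04, edgeR adjusted p = 0.876). Among other ATF4 targets, ATF3 was higher in shControl than in wild type, at 1.18 (SE 0.15, edgeR adjusted p = 0.000376), while GDF15, a secreted stress cytokine, was lower, at -1.0 (SE 0.07, edgeR adjusted p = 6.87e-06). These genes were named after their values were seen.

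GDF15 and SLC7A11, the cystine importer, ran in opposite directions in the 2 perturbations. SLC7A11 had 61.3 and 68.3 CPM in ARID1A KO libraries, against 29.8 and 31.3 CPM in wild-type libraries, and 11.6 and 9.83 CPM in CAPH2 KD libraries, against 20.5 and 18.8 CPM in shControl libraries. GDF15 had 82.6 and 79.9 CPM in ARID1A KO, against 48.7 and 44.4 CPM in wild type, and 14.2 and 13.1 CPM in CAPH2 KD, against 23.0 and 23.5 CPM in shControl. Neither pair of groups overlapped for either gene, which held for 64.5% of all genes in the knockout comparison and 59.0% in the knockdown comparison. Both genes were picked from the 13 other ATF4 targets tested.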
